A study of Homo sapiens with 4 samples.

Results

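The fatty acid oxidation genes described here are CPT1A, CPT2, ACADM, ACADVL, ACADL, HADHA, HADHB, PPARA and PPARGC1A, chosen by name, and every probe that carries one of these names on the array was taken. They make up 9 of the 25992 gene names on the array and are read by 10 of its 34127 probes, 2 of them for PPARA and 1 for each other gene. Gene expression was measured in human proximal tubular cells (HPTCs) of the lines HK-2 and RPTEC/TERT1 with n = 2 arrays each, written below as r1 and r2 for replicate 1 and replicate 2 of each label. HK-2 carries papillomavirus genes (E6 and E7) as immortalising agents and was grown in keratinocyte medium with serum, epidermal growth factor and bovine pituitary extract. RPTEC/TERT1 was immortalised with the catalytic subunit of telomerase and grown in DMEM and Ham's F-12 with insulin, transferrin, selenium, epidermal growth factor and hydrocortisone. Cells of all 4 arrays had no serum or supplements for 24 h, after which they received the cytokine IL-1β (10 ng/mL) together with the SGLT2 inhibitor empagliflozin (Empa, 500 nM) for 24 h. Arrays of unstimulated cells or of IL-1β without Empa were not analysed here, so the values describe levels under the combined stimulation and no response to either agent.

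Fatty acid oxidation breaks long-chain fatty acids down in mitochondria, and it is known as the main fuel supply of the proximal tubule in the kidney. CPT1A at the outer mitochondrial membrane links the fatty acid to carnitine, and CPT2 at the inner membrane returns it to coenzyme A. Each round of β-oxidation then starts with an acyl-CoA dehydrogenase (ACADVL for very long, ACADL for long and ACADM for medium chains), and for long chains the following steps run on the mitochondrial trifunctional protein, made of the subunits HADHA and HADHB. PPARA is a fatty acid-activated nuclear receptor that switches on genes of this pathway, and PPARGC1A (PGC-1α) is a coactivator of PPARA and of other factors that drive mitochondrial genes.

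What the array reads of a gene is the binding of labelled RNA to a probe of 60 bases. The probes of CPT1A, ACADM and HADHA are shown because CPT1A varied most over the arrays, ACADM alone ran against the other genes and HADHA varied little. All bases are in capitals since the whole run is the probe.
CPT1A: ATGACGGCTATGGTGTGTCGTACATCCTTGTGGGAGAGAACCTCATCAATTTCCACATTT
ACADM: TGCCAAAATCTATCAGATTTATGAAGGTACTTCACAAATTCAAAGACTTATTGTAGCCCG
HADHA: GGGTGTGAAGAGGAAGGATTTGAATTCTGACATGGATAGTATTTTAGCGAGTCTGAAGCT
On GRCh37, the build named in the file headers, the CPT1A probe lies at chr11:68527063-68527122 on the minus strand and the HADHA probe at chr2:26415197-26415256, also on the minus strand. The ends of the ACADM probe, chr1:76227040-76228420 on the plus strand, span 1381 bases of the genome, so its 60 bases are joined across an interval that is missing from the transcript. The remaining probes lie at chr1:53679252-53679311 (CPT2, plus), chr17:7128439-7128498 (ACADVL, plus), chr2:211052830-211052889 (ACADL, minus), chr2:26512913-26512972 (HADHB, plus), chr22:46615754-46615813 and chr22:46639178-46639237 (PPARA, plus) and chr4:23793937-23793996 (PPARGC1A, minus). No annotation of that build was used here, so exon or untranslated region is not given. The transcripts of all 10 probes are listed under the same symbol in the RefSeq gene table.

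Promoter windows of RefSeq (GRCh38.p14, 250 bases before a transcription start and 50 after it) were found for all 9 genes, 12 windows in all. HADHA and HADHB start 307 bases apart on opposite strands, so the genes of both subunits of the trifunctional protein share a promoter region. The part between the starts that lies in both windows, chr2:26244689-26244882, is shown on the plus strand. The windows before the starts of CPT1A (chr11:68844278-68844527, minus strand) and PPARGC1A (chr4:24472906-24473155 for the distal and chr4:23881102-23881351 for the proximal start, minus strand) follow, since these genes had the widest range over the arrays. Capitals mark a GC box or an E-box.
HADHA and HADHB: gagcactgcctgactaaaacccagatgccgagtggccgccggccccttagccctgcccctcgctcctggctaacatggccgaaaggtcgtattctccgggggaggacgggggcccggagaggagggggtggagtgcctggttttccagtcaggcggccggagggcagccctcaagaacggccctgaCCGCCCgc
CPT1A: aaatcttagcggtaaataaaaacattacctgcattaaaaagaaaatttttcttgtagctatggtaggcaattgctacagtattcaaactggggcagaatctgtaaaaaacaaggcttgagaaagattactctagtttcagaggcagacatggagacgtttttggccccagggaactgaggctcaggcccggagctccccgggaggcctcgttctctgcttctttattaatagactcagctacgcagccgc
PPARGC1A distal: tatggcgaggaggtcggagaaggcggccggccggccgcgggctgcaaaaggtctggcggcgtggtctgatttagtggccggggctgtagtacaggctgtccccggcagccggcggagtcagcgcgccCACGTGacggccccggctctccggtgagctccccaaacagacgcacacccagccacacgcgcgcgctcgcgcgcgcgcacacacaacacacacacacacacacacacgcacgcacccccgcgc
PPARGC1A proximal: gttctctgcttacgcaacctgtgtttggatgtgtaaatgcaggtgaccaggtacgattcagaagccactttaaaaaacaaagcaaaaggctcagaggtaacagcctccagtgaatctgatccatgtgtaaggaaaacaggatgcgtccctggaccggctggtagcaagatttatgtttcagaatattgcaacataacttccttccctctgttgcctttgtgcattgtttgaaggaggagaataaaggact
On either strand, the GC box GGGCGG was found in 8 of the 12 windows, against 45.0% of all 35116 windows. These 8 windows belong to 7 of the 9 genes, those of CPT1A and ACADL being without a match. The windows of HADHA and HADHB overlap by 194 bases and share 1 match, so the windows are not independent. The E-box CACGTG was found in the distal window of PPARGC1A and in no other window of these genes, against 7.26% of all windows. CCAAT was found in a window of PPARA alone, against 34.6% of all. No window of the 9 genes held the cyclic AMP response element TGACGTCA (1.85% of all windows), the nuclear receptor motif AGGTCA (13.8%), its direct repeat AGGTCANAGGTCA (0.0228%) or TCAAGGTCA, the longer form bound by oestrogen-related receptors (0.353%), of which the last pair contain AGGTCA. Such matches are descriptions of letters in a short window and no evidence of binding.

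The arrays did not pair as labelled, and each result below has to be read with this in mind. Across 17928 genes, HK-2 r1 correlated at 0.980 with RPTEC/TERT1 r2 and HK-2 r2 at 0.976 with RPTEC/TERT1 r1, while the arrays of a label correlated at 0.865 (HK-2) and 0.855 (RPTEC/TERT1). Genes are not independent replicates, and no test was made of these values. The labels were kept as given, the comparison of the lines rests on them, and whether arrays or labels were exchanged was not tested. Replicate 1 of both lines was scanned in 1 batch and replicate 2 of both in another, and each array was on its own slide, so that an effect of the slide and one of the array cannot be told apart. The methods describe the replicates as biological duplicates, while the labels do not link an array to a culture, and p-values measure the spread between these arrays only. Arrays were brought to a common scale by dividing the processed signal by the 75th percentile of the array (393 and 748 on HK-2 r1 and r2, 488 and 429 on RPTEC/TERT1 r1 and r2). The log2 of this ratio is called the level. It was bounded below at -5.37, the floor, and a level of 0 is the 75th percentile itself. Probes spotted 10 times gave a median SD of 0.082 to 0.14 between spots of an array, on the log2 scale.

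At the entry of the pathway, CPT1A was the gene with the widest range. Its probe is spotted 10 times on each array, and the mean processed signal was 77.1 on HK-2 r1, 15.4 on HK-2 r2, 12.0 on RPTEC/TERT1 r1 and 90.1 on RPTEC/TERT1 r2. Single spots ran from 64.8 to 86.3, from 12.2 to 26.3, from 6.09 to 23.1 and from 82.6 to 101 on these arrays. Thus 1 array of each label was bright and the other dim, and no spot of a bright array overlapped with a spot of a dim array. On the bright arrays all 10 spots were well above background by the mark of the Agilent Feature Extraction software. On HK-2 r2, where 1 spot was left out as an outlier, it was 3 of 9, and on RPTEC/TERT1 r1 2 of 10. On the dim arrays the level is therefore a bound. CPT1A was at least 7.75-fold higher on HK-2 r1 than on HK-2 r2 and at least 7.55-fold higher on RPTEC/TERT1 r2 than on RPTEC/TERT1 r1. Its levels on the bright arrays were -2.36 (HK-2) and -2.25 (RPTEC/TERT1), 1.07-fold apart.

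**Figure D1:**
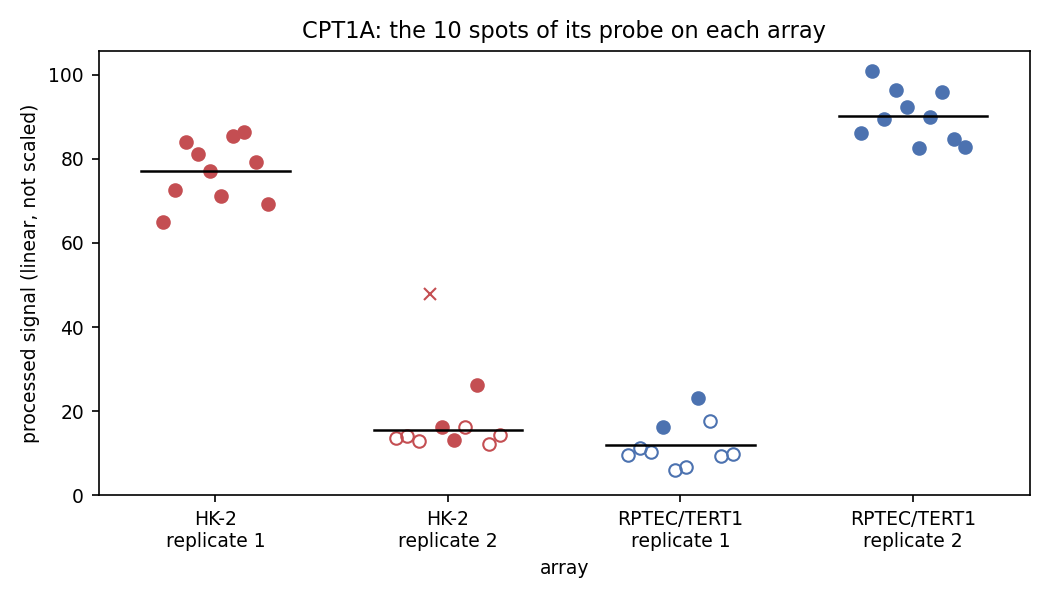
Processed signal (linear, not scaled between arrays) of the 10 spots of the CPT1A probe on each array. Filled circles are spots well above background, open circles are spots that are not, the cross is a spot left out as an outlier and the line is the mean of the spots used. Means are 77.1 and 15.4 on HK-2 r1 and r2 and 12.0 and 90.1 on RPTEC/TERT1 r1 and r2.

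CPT2, the inner membrane partner of CPT1A, was well above background on every array. Its processed signal was 674 on HK-2 r1, 750 on HK-2 r2, 269 on RPTEC/TERT1 r1 and 1045 on RPTEC/TERT1 r2, and the levels were 0.78, 0.0051, -0.86 and 1.29 in this order. The RPTEC/TERT1 arrays lay on either side of both HK-2 arrays. Between the RPTEC/TERT1 arrays CPT2 was 4.42-fold higher on replicate 2, and between the HK-2 arrays 1.71-fold higher on replicate 1. Before scaling, the HK-2 arrays stood in the opposite order.

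Among the acyl-CoA dehydrogenases, ACADVL gave a processed signal of 17812 and 12824 on HK-2 r1 and r2 and of 12279 and 16206 on RPTEC/TERT1 r1 and r2. No spot of these genes was marked as saturated. The levels of ACADVL were 5.50, 4.10, 4.65 and 5.24, with HK-2 r1 and RPTEC/TERT1 r2 highest and a 2.64-fold difference between the HK-2 arrays. On the log2 scale this difference of 1.40 was 0.20 with a normexp background correction and 0.83 with the deposited log2 values, both under 2-fold. ACADM, the medium-chain enzyme, ran the other way. Its processed signal was 263 and 883 on HK-2 r1 and r2 and 425 and 300 on RPTEC/TERT1 r1 and r2, and its levels were -0.58, 0.24, -0.20 and -0.52. HK-2 r2 was 1.77-fold above HK-2 r1, and RPTEC/TERT1 r1 was 1.24-fold above RPTEC/TERT1 r2. ACADL was not well above background on any array, with a background-subtracted signal between -3.82 and -0.18, and was not tested.

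For the trifunctional protein, HADHA had the narrowest range of the measured enzymes, with a processed signal of 1130, 1483, 1112 and 1119 on HK-2 r1 and r2 and RPTEC/TERT1 r1 and r2, and levels of 1.52, 0.99, 1.19 and 1.38. For HADHB the signal was 5807, 6005, 4714 and 6025 and the level 3.88, 3.01, 3.27 and 3.81 in the same order. Both subunits had the same order of arrays in their levels, HK-2 r1 highest and HK-2 r2 lowest, over a range of 0.53 for HADHA and 0.88 for HADHB. This order depends on the scaling. The unscaled signals of HK-2 r2 were at or above those of HK-2 r1 for both genes, and the difference between the HK-2 arrays turned from 0.53 to -0.35 for HADHA and from 0.88 to -0.27 for HADHB under a normexp background correction, which moved the median of this difference over all tested genes from 0.062 to 0.99. HK-2 r1 holds 7 spots of very bright local background. Without them, an alternative chosen after seeing the data, normexp gave 0.43 for HADHA and 0.79 for HADHB, with 0.27 over all genes. The deposited log2 values gave 0.14 and 0.35, with 0.73 over all genes, so that relative to the median gene both lay lower on HK-2 r1 there. Both are brighter than the median gene, at percentiles of 81.3 (HADHA) and 94.4 (HADHB) by mean level. ACADL, not well above background on any array, gave 2.55 there. Whether this shift depends on brightness was not tested, so no lower level of both genes can be read from it.

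Of the regulators, PPARGC1A varied nearly as widely as CPT1A, and it was well above background on all 4 arrays. Its processed signal was 236 and 60.7 on HK-2 r1 and r2 and 43.0 and 181 on RPTEC/TERT1 r1 and r2. The levels were -0.74, -3.62, -3.51 and -1.24, so that HK-2 r1 and RPTEC/TERT1 r2 stood above both other arrays. PPARGC1A was 7.38-fold higher on HK-2 r1 than on replicate 2, and 4.80-fold higher on RPTEC/TERT1 r2 than on replicate 1. Each array has a single spot of this probe. Across the background corrections and scalings tried, its difference between the HK-2 arrays ran from 2.09 to 2.90 on the log2 scale and that between the RPTEC/TERT1 arrays, replicate 1 minus replicate 2, from -2.29 to -1.33. For CPT1A the same ranges were 1.64 to 3.15 and -2.96 to -1.08. The normexp values hold an offset of 50 that by construction narrows differences between dim signals. This does not account for all ends of the ranges, since 3.15 was itself a normexp value. Under that setting ACADL, not well above background on any array, gave 3.55 between the HK-2 arrays. Without the spots of bright background normexp gave 0.87 for ACADL and 1.64 for CPT1A. The ends of -1.08 and -1.33 came from the deposited log2 values.

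The probes of PPARA disagreed. The probe at chr22:46639178-46639237 was well above background on every array, with a processed signal of 166, 172, 131 and 135 on HK-2 r1 and r2 and RPTEC/TERT1 r1 and r2 and levels of -1.25, -2.12, -1.90 and -1.66. The other probe gave 3.25, 18.7, 11.0 and 5.72 and was well above background on RPTEC/TERT1 r1 alone, with all 4 levels at or near the floor. As the mean of both probes, the PPARA level stood at -3.31, -3.72, -3.63 and -3.52, a range of 0.41 that the probe at the floor narrows. The brighter probe alone ranged over 0.88.

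**Figure D2:**
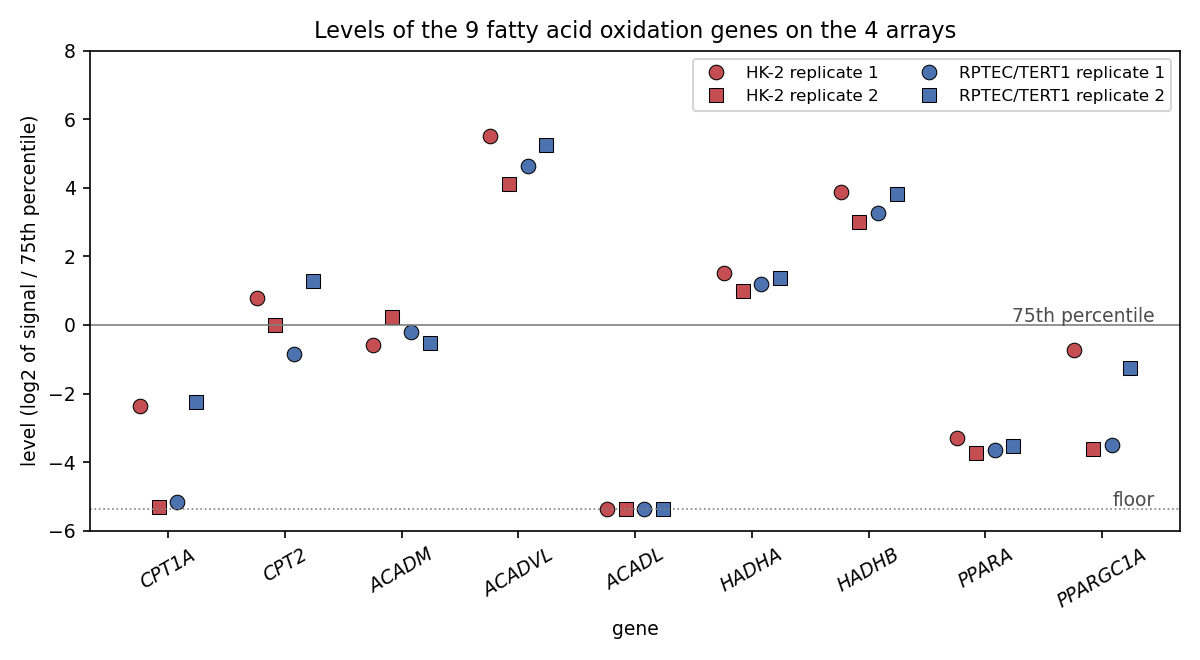
Level (log2 of the processed signal over the 75th percentile of the array) of the 9 fatty acid oxidation genes on the 4 arrays, 1 point per array, with colour for the labelled cell line and shape for the replicate number. The solid line is the 75th percentile and the dotted line the floor of -5.37, where ACADL lies on all arrays. Except for ACADM and ACADL, HK-2 r1 and RPTEC/TERT1 r2 are the 2 highest arrays of each gene.

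Whether the lines differ under IL-1β and Empa was tested with limma over the 16468 genes measured well above background on 2 or more arrays, 8 of the 9 fatty acid oxidation genes among them and 7 of these well above background on all 4 arrays. With Benjamini-Hochberg adjustment no fatty acid oxidation gene passed 0.05, and none of all genes did (percent called: 0). At an unadjusted p under 0.05, limma called 23 genes, none of them a fatty acid oxidation gene. That is a smaller share of the 16468 genes than 0.05, so these p-values are not calibrated for these arrays. For no fatty acid oxidation gene did the HK-2 arrays lie apart from the RPTEC/TERT1 arrays, which was so for 7.17% of all genes tested. The median difference, HK-2 minus RPTEC/TERT1, was 0.015 over the 8 genes. It ranged from -0.15 (ACADVL) to 0.19 (PPARGC1A).

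The intervals were wide, so that equal levels were not shown either. For CPT1A, whose level is a bound on 1 array of each label, the mean, SD and interval come from values close to the floor and are no measured spread. It had a level of -3.83 ± 2.09 (SD, n = 2) in HK-2 and -3.71 ± 2.06 (SD, n = 2) in RPTEC/TERT1, a difference of -0.12 with a 95% interval from -4.13 to 3.89. PPARGC1A was at -2.18 ± 2.04 (SD, n = 2) in HK-2 and at -2.38 ± 1.60 (SD, n = 2) in RPTEC/TERT1, with an interval of the difference from -3.39 to 3.77. CPT2 stood at 0.39 ± 0.55 (SD, n = 2) and 0.21 ± 1.52 (SD, n = 2), with an interval from -2.22 to 2.57. The narrowest intervals were those of PPARA, from -1.14 to 1.26 around 0.061, and HADHA, from -1.28 to 1.22 around -0.031. Differences for the remaining genes were 0.19 (ACADM, interval -1.21 to 1.58), -0.15 (ACADVL, interval -1.95 to 1.66) and -0.097 (HADHB, interval -1.58 to 1.39). The adjusted p of limma was 1 for each of the 8 genes.

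**Figure D3:**
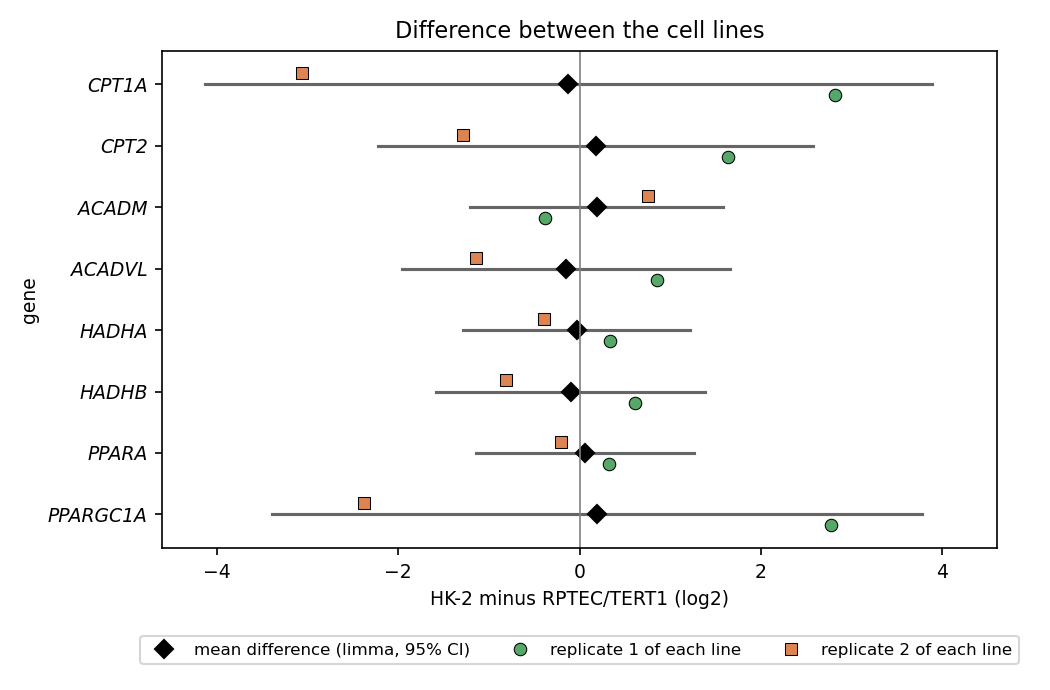
HK-2 minus RPTEC/TERT1 on the log2 scale for the 8 genes tested. Diamonds are the differences of means with their 95% intervals from limma, circles the difference between the replicate 1 arrays and squares that between the replicate 2 arrays. For every gene the circle and the square lie on opposite sides of 0.

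Within a scan batch the values of the lines lay apart, in opposite directions in the batches. Between the replicate 1 arrays, HK-2 minus RPTEC/TERT1 was 2.81 for CPT1A, 2.77 for PPARGC1A and 1.64 for CPT2, and between the replicate 2 arrays it was -3.06, -2.38 and -1.28. The sign in one batch was opposite to that in the other for all 8 genes, as it was for 85.8% of all genes tested. With 1 array on each side no test could be made of these differences. In terms of arrays, 7 of the 8 genes had their highest levels on HK-2 r1 and RPTEC/TERT1 r2, and 1, ACADM, had its lowest there. Of all genes tested, 38.8% had the first order and 33.2% the second. The count of 7 and 1 held with quantile normalization and with the deposited log2 values, whereas with normexp 4 genes had the first order and ACADM, ACADVL, HADHA and HADHB neither. Without the spots of bright background normexp gave 7 and 1 again. The shares of 38.8% and 33.2% rest on the levels, and shares of all genes under the alternatives are not given. With the deposited log2 values the median over all genes of HK-2 r1 minus HK-2 r2 was 0.73, against 0.062 with the levels. For HK-2 r1 minus RPTEC/TERT1 r1 it was 0.69, against 0.12. Whether the counts under the alternatives are particular to these genes was not tested.

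Counts past 2-fold tell the same arrays apart. Between HK-2 r1 and replicate 2, 3 of 8 genes (CPT1A, PPARGC1A and ACADVL) differed by more than 2-fold, against 34.0% of all genes. Between RPTEC/TERT1 r1 and replicate 2 it was 3 of 8 (CPT1A, PPARGC1A and CPT2), against 40.4%. Between HK-2 r2 and RPTEC/TERT1 r2, 4 of 8 passed, against 33.7%, and between the replicate 1 arrays 3 of 8, against 36.0%. None of the 8 did between HK-2 r1 and RPTEC/TERT1 r2, against 4.90% of all genes, or between HK-2 r2 and RPTEC/TERT1 r1, against 6.78%. These shares lie near the background and with 8 genes no more can be read from them. The median difference between HK-2 r1 and r2 was 0.83 over the 8 genes and 0.062 over all genes, and between RPTEC/TERT1 r1 and r2 it was -0.57 and -0.092. The contrast between the HK-2 arrays depends on the processing. With the deposited log2 values the median over all genes was 0.73. CPT2 (0.44), HADHB (0.35), HADHA (0.14) and ACADM (-0.62) lay below it, and CPT1A, PPARGC1A, PPARA and ACADVL (0.83 to 2.42) above. With normexp it was 0.99 over all genes, and of the 8 genes only CPT1A, PPARGC1A and PPARA lay above. ACADL, not well above background on any array, lay above as well, with 3.55, and with 2.55 in the deposited log2 values. Lying above is thus not particular to measured genes under these settings. Without the spots of bright background normexp gave 0.87 for ACADL.

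The other genes of the pathway were taken from lists of 81 genes, of which 80 were on the array and 65 were tested. Of the 15 not tested, 8 were not well above background on any array (among them CD36, FABP1, FABP4, ACSL6, ABCD2, PLIN5 and FGF21), 4 were on a single array (FABP3, ACOX2, ESRRG and KLF15), and 3 lacked a value on 1 array (CRAT, ECI2 and HSD17B4). No gene of these lists rose or fell between the lines by the limma test. SCP2, a peroxisomal thiolase and lipid carrier protein named after its values were seen, was the only one whose lines did not overlap. That is 1 of 65, against 7.17% of all genes tested, so it is no result about the list. Its levels were -1.60 and -1.67 on the HK-2 arrays and -1.80 and -1.83 on the RPTEC/TERT1 arrays. HK-2 r2 and RPTEC/TERT1 r1 were 0.13 apart, against a median SD between spots of 0.082 to 0.14. Between the HK-2 arrays 21 of 65 differed by more than 2-fold, against 34.0% of all genes. Between the RPTEC/TERT1 arrays it was 26 of 65, against 40.4%. Of the 65, 27 had the order of CPT1A, with HK-2 r1 and RPTEC/TERT1 r2 highest, and 21 had the order of ACADM, against 38.8% and 33.2% of all genes. The counts moved to 32 and 8 with the deposited log2 values, to 29 and 8 with normexp, and to 33 and 16 with normexp without the spots of bright background. Shares of all genes under these settings are not given, so the moves cannot be read as particular to the pathway. Over all genes the median of HK-2 r1 minus r2 was 0.73, 0.99 and 0.27 under them.

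By role, the genes of uptake and activation (10 tested) had a median difference, r1 minus r2, of 0.61 between the HK-2 arrays and -0.59 between the RPTEC/TERT1 arrays. ACSL1 and ACSL5 activate long-chain fatty acids to acyl-CoA. The levels of ACSL1 were 1.41, -1.03, -0.25 and 1.06 on HK-2 r1 and r2 and RPTEC/TERT1 r1 and r2, and those of ACSL5 were -0.39, -1.81, -2.14 and -0.16. Both stood highest on the arrays on which CPT1A was bright. FABP5, a fatty acid-binding protein, had levels of -0.65, 0.91, 0.76 and -0.65, the reverse order.

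Of the carnitine shuttle genes beside CPT1A and CPT2, 7 were tested, with medians of 1.06 and -0.86 in the same order. SLC25A20, the carrier of acylcarnitine across the inner membrane between CPT1A and CPT2, had levels of -0.67 and -2.92 on HK-2 r1 and r2 and -2.32 and -0.89 on RPTEC/TERT1 r1 and r2, the order of CPT1A. The 14 other genes of mitochondrial β-oxidation tested had a median of -0.14 between the HK-2 arrays and of -0.27, the same sign, between the RPTEC/TERT1 arrays, and 1 of them, ACAD11, passed 2-fold between the HK-2 arrays. ACAD11 is an acyl-CoA dehydrogenase family member, and its levels were -1.96 and 0.77 in HK-2 and 0.54 and -1.72 in RPTEC/TERT1, the order of ACADM with a wider range. Peroxisomal genes (10 tested) had medians of 0.33 and -0.29. EHHADH, the peroxisomal bifunctional enzyme, stood at -3.87 and -2.96 in HK-2 and -2.70 and -4.25 in RPTEC/TERT1.

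The 16 other regulators tested had medians, r1 minus r2, of -0.31 between the HK-2 arrays and 0.10 between the RPTEC/TERT1 arrays. PPRC1 belongs to the family of PPARGC1A but did not share its order, with levels of 0.88, 1.98, 2.69 and 0.44 on HK-2 r1 and r2 and RPTEC/TERT1 r1 and r2. TFAM, which maintains mitochondrial DNA, had levels of -1.01, 1.40, 0.70 and -0.50. Both were lowest on the arrays on which PPARGC1A was highest. The 8 tested targets of PPARA beyond the 9 genes had medians of 0.41 and 0.43, the same sign. Among them PDK4, a kinase that shuts off pyruvate dehydrogenase, had levels of -1.49, -3.75, -3.64 and -1.78, the order of PPARGC1A. UCP3, a mitochondrial carrier, stood at 4.01, 3.47, 2.54 and 4.75. PLIN2, a lipid droplet coat protein named after its values were seen, was at the floor on HK-2 r1 and RPTEC/TERT1 r2 and at -1.88 on both other arrays.

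**Figure D4:**
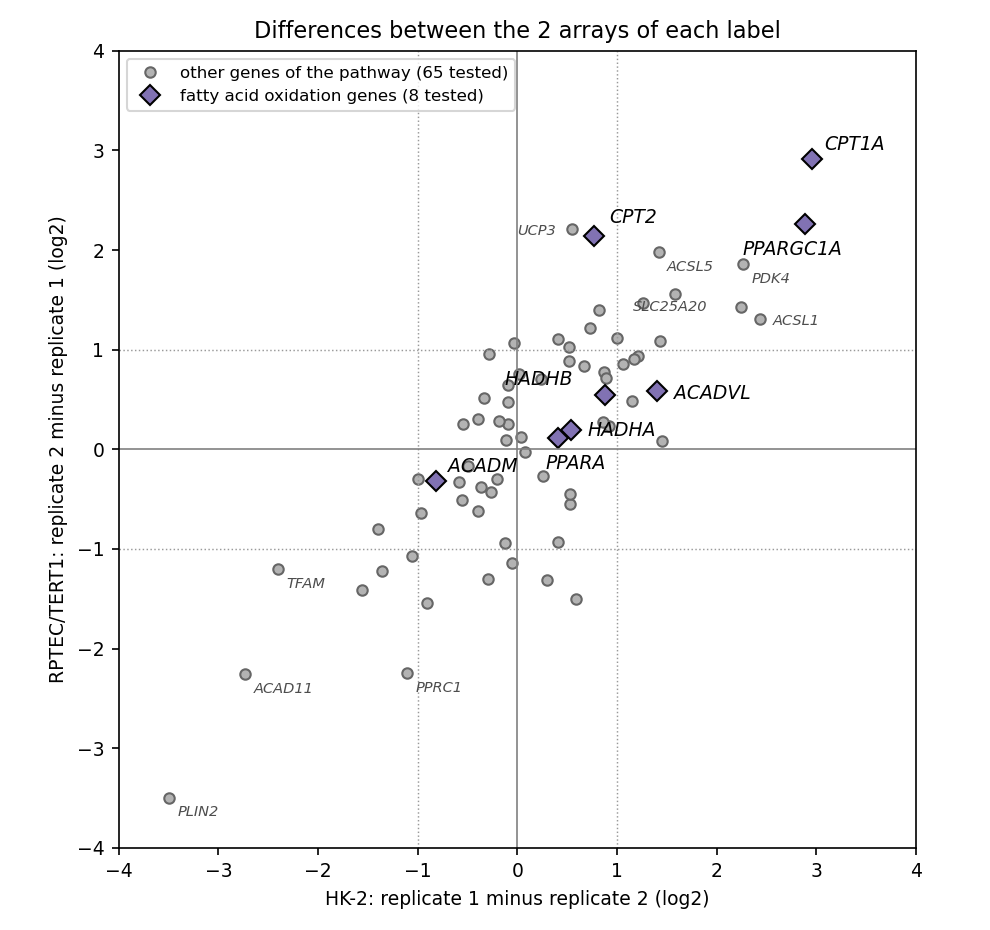
Difference between the 2 arrays of a label on the log2 scale, HK-2 r1 minus replicate 2 on the horizontal axis and RPTEC/TERT1 r2 minus replicate 1 on the vertical axis, for the 8 fatty acid oxidation genes tested (diamonds) and 65 other genes of the pathway (circles). Dotted lines mark a 2-fold difference, and CPT1A and PPARGC1A lie past it on both axes, as do ACAD11, PPRC1, TFAM and PLIN2 among others on the opposite side.

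As a measure of likeness, the root mean square difference of levels centred on the mean of the 4 arrays was computed between each gene well above background on all 4 arrays and 72 candidates, the other genes of the pathway included. The nearest was UCP3 for CPT2 (0.094), RXRG for ACADM (0.065), SIRT3 for ACADVL (0.14), UCP2 for HADHB (0.076) and PDK4 for PPARGC1A (0.27). HADHA and PPARA were each other's nearest (0.069), with PPARA taken as the mean of 2 probes of which 1 lies at the floor. Among all other 16467 genes tested, the nearest to PPARGC1A were SORBS2, FAM159B and IRX6 (0.044 to 0.049), each at the floor on HK-2 r2 and RPTEC/TERT1 r1. With 4 arrays that fall into 2 like pairs, many genes come close by this measure.

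Markers of other states moved with the same arrays. All 10 genes of a proliferation list were more than 2-fold higher on HK-2 r2 and RPTEC/TERT1 r1 than on either other array, and their summed signal, as multiples of the 75th percentile, was 2.97 and 57.2 on HK-2 r1 and r2 and 61.3 and 3.09 on RPTEC/TERT1 r1 and r2. CDK1 went from a level of -3.22 to 3.65 between HK-2 r1 and r2. The fibroblast genes DCN and LUM had levels of -0.61 and 0.23 on HK-2 r2 and of -0.87 and -0.30 on RPTEC/TERT1 r1 and were at or near the floor on the other arrays, with COL1A2, COL3A1 and PDGFRB at or near the floor throughout, and the sum of 6 fibroblast markers was 0.154 and 1.94 in HK-2 and 1.48 and 0.151 in RPTEC/TERT1. Of 20 proximal tubule markers, 8 were not well above background on any array (among them CUBN, SLC5A1, SLC22A6, HNF4A, FBP1 and PCK1), while ANPEP was measured on HK-2 r1 and RPTEC/TERT1 r2 and at the floor on both other arrays. CDH6 ran the other way, with levels of -3.26 and 0.27 in HK-2 and 0.86 and -3.49 in RPTEC/TERT1, and LRP2 was also higher on HK-2 r2 (-1.72) than on HK-2 r1 (-3.34), with -2.77 and -3.06 in RPTEC/TERT1. The 11 proximal tubule markers tested had a median difference, r1 minus r2, of 0.036 between the HK-2 arrays and -0.53 between the RPTEC/TERT1 arrays. The sum of this list was 21.1 and 6.05 in HK-2 and 10.5 and 17.1 in RPTEC/TERT1, with PAX8 at levels of 4.13 and 1.61 in HK-2 and 2.79 and 3.73 in RPTEC/TERT1 as its main part, and that of 5 epithelial markers 84.2 and 36.7 in HK-2 and 35.2 and 97.0 in RPTEC/TERT1. Sums for adipocyte, muscle and liver markers (7 genes, 0.177 to 0.189), leukocyte markers (5 genes, 0.252 to 0.446) and endothelial markers (5 genes, 0.220 to 0.419) were low on every array. Markers of other nephron segments (7 genes) had sums of 0.390 to 1.46. Among them SLC12A1 had levels of -0.51 on HK-2 r1 and -0.098 on RPTEC/TERT1 r2 and was at the floor on both other arrays. CDKN2A, a cell cycle inhibitor gene, had levels of 0.29 and 4.17 in HK-2 and of 4.04 and 0.20 in RPTEC/TERT1, so that each label held 1 high and 1 low array. TERT was at -4.05 and -4.36 in HK-2 and -3.62 and -4.67 in RPTEC/TERT1, and whether its probe covers the introduced copy is not known here. The part of these markers in the levels of the fatty acid oxidation genes was not tested, and in cultures read in bulk, fewer cells of a kind and less RNA per cell cannot be told apart.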

How the data were processed

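Gene expression was measured on 1-colour Agilent arrays (Cy3) of HPTCs under IL-1β plus Empa. The authors deposited linear spot intensities from the Agilent Feature Extraction software (version 9.5.3.1), given as processed signal after background subtraction and without scaling between arrays, and a table of log2 values, the making of which was not given in the sources used here. The table follows the spot signals in direction (rank correlation of 0.992 to 0.995), whereas its centring and scale stay unknown, with medians of 8.33, 7.14, 6.75 and 6.72 on HK-2 r1 and r2 and RPTEC/TERT1 r1 and r2. It was used as an alternative only. The methods name the innuPREP kit and the labels the RNeasy kit for RNA isolation.

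Controls and outlier spots were dropped. Each signal was expressed relative to the 75th percentile of its array, bounded below at 0.0242 of it (the lowest scaled signal well above background, taken from the array where it is highest) and log2-transformed. Values were averaged over the spots of a probe, then over those probes of a gene that were well above background on 1 array or more. HK-2 and RPTEC/TERT1 were compared with limma 3.58.1 (lmFit and eBayes, R 4.3.3) over genes measured above background on 2 or more of 4 arrays, with Benjamini-Hochberg adjustment at 0.05, after the fit was tested on simulated data. In the simulation the arrays of a label were alike, unlike the arrays here. It checks the code and does not show how the fit behaves on these data. The number of arrays limits the precision. The genes of interest and all lists were chosen with earlier results of these data known. Named beside them are, among pathway and marker genes well above background on all arrays, up to 3 with the largest difference in each direction between the arrays of a label, and the nearest genes by centred level. Of the markers this rule names, several are given as part of their lists only. Some genes of the lists are not reported here by name.

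Replicate numbers are shared between the lines and mark the scan batch. Deviations of same-numbered arrays from the means of their lines had a correlation of -0.81 across genes.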

Additional observations from a re-analysis of the deposited data

Results flagged for a closer look

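For each of the 8 genes tested, the difference HK-2 minus RPTEC/TERT1 had opposite signs in the arrays numbered replicate 1 and those numbered replicate 2. This difference between replicate numbers was not tested, since each side holds 1 array. In CPT1A the log2 difference was 2.81 within replicate 1 and -3.06 within replicate 2, and the dim arrays give bounds only. In CPT2 it was 1.64 and -1.28, in PPARGC1A 2.77 and -2.38, and in ACADVL 0.85 and -1.14. ACADM ran the other way with -0.38 and 0.76. Smaller values were found for HADHB (0.61 and -0.81), HADHA (0.34 and -0.40) and PPARA (0.33 and -0.20). Opposite signs were found in 85.8% of all genes tested.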

How the results depend on the processing

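The result that no gene passed the limma threshold, neither of the 8 fatty acid oxidation genes nor of the 65 other pathway genes nor of all, held under each of the 14 alternatives run, while the count at an unadjusted p under 0.05 moved from 23 to between 3 (deposited log2 values) and 245 (no filter on dim probes). With the replicate block, 0 genes passed and 5 had an unadjusted p under 0.05, and the median difference of the 8 genes stayed at 0.015. The block changed no other call. A crossed replicate block, added after seeing the data, gave 0 and 183. Since same-numbered arrays deviated in opposite directions, the numbers were not taken to pair them. All alternatives kept the labels, within which arrays correlated at 0.865 and 0.855, against 0.980 and 0.976 for the like pairs across labels. With such a spread within labels few differences between the lines could pass. That none passed under any alternative is therefore no added evidence that the lines are alike. The direction of the difference between the lines was not stable for any gene, none of which was called. With normexp the difference was 0.52 for CPT1A and -0.075 for CPT2, with the deposited log2 values 0.19 for CPT1A, and with normexp without the spots of bright background, also added after seeing the data, -0.0048 for PPARA. Leaving out each array in turn gave ranges of -1.60 to 1.35 for CPT1A, -0.89 to 1.25 for CPT2, -0.22 to 0.60 for ACADM, -0.85 to 0.55 for ACADVL, -0.30 to 0.24 for HADHA, -0.54 to 0.34 for HADHB, -0.15 to 0.27 for PPARA and -1.25 to 1.64 for PPARGC1A, and of -0.42 to 0.45 for their median. In these fits the lone array of a label was assumed to vary like the other label. The cause of these moves was not tested. With the fit limited to genes well above background on all arrays CPT1A was not included. Signal over background limits CPT1A on HK-2 r2 and RPTEC/TERT1 r1, 1 probe of PPARA and ACADL.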
